A study of Mus musculus with 70 samples.

Results

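Complex I (NADH:ubiquinone oxidoreductase) is the entry point of electrons into the mitochondrial respiratory chain. It takes electrons from NADH through a flavin and a chain of iron-sulfur clusters in a peripheral arm, passes them to ubiquinone, and pumps protons through a membrane arm. Core subunits carry the catalysis and are shared with bacteria, accessory subunits surround and stabilize them, and assembly factors help build the enzyme without remaining in it. In neurons the respiratory chain supplies most of the ATP used for synaptic signalling and ion pumping.

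The genes described here are all rows of the processed RNA-seq table whose symbol begins with Nduf, 45 of 24346 genes. They comprise 36 nuclear-encoded subunits (7 core, 9 accessory subunits of the peripheral arm, 19 accessory subunits of the membrane arm and the acyl carrier Ndufab1), 7 Ndufaf assembly factors, and Ndufa4 and Ndufa4l2. Ndufa4 was first described with complex I and is now assigned to complex IV, and Ndufa4l2 is its paralogue, so both were kept apart from the subunits. All 45 passed the filter of a mean of at least 1 FPKM that left 12994 genes for testing. Ndufb1, Ndufaf8 and the mitochondrially encoded core subunits were not analysed here.

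RNA came from the dorsal hippocampus of male C57BL/6J mice aged 12 weeks, in 7 groups of 10 libraries. The 5 exercise groups ran on wheels and are named by days of initial exercise, of sedentary delay and of reactivating exercise. They were 0-0-2 (a short bout alone), 14-0-0 (no delay), 14-14-0 and 14-7-0 (delay without reactivation) and 14-7-2 (delay, then reactivation). The sedentary group (0-0-0) never had a wheel, and it and the exercise groups were trained for 3 min in object location memory (OLM), a task too brief to form a lasting memory in sedentary mice, with dissection 1 h later. Home cage mice had neither wheel nor training, and each group was split evenly over 2 harvest cohorts collected on separate days. The comparisons ask whether wheel running, the delay, or its reactivation changed hippocampal gene expression during consolidation. FPKM (fragments normalised to transcript length and to the mapped fragments of the library) were analysed as log2(FPKM + 0.1) with limma's moderated test, two-sided, on the 20 libraries of each comparison. A gene was called at an unadjusted p under 0.05.

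Several libraries stood apart. The library 14-7-0 replicate 4 had 10279 genes at 0 FPKM, where the other libraries had 6243 to 7199. The summed level of 10 hippocampal excitatory neuron markers was 137 FPKM in sedentary replicate 6, where the median of that group was 498, and all 10 markers were above 0 in every library. The same library had the highest sums of its group for 6 thalamus markers (112 FPKM, median 33.1) and 8 oligodendrocyte markers (7018.5 FPKM, median 3150). It had the lowest sum for 6 general neuron markers (1465 FPKM, median 2302). Its inhibitory neuron markers were not low, with a score of 0.47 (mean log2 value relative to each gene's mean). The thalamus sum also reached 100.6 FPKM in 14-7-2 replicate 3 (median 31.2) and 94.0 in 0-0-2 replicate 4 (median 28.7). It was 85.2 FPKM in 14-14-0 replicate 3 (median 32.1), and at most 44.6 in home cage, 14-0-0 and 14-7-0. The excitatory neuron sum was 317 FPKM in 0-0-2 replicate 8 (median 527). The summed level of 12 choroid plexus epithelium markers ran from 75.5 to 508 FPKM in sedentary libraries, from 92.9 to 18410 in 14-0-0 and from 112 to 24895 in 14-14-0. No marker of that list was at 0 in all libraries of a group, but only 7 of 12 were above 0 in every library. Against sedentary, 12 of 12 were called higher in 14-0-0 (6.11% of all genes) and in 14-14-0 (3.19%). It was 6 in home cage (1.22% of all genes) and 12 in 14-0-0 against 14-7-0 (3.6%). In bulk tissue, fewer cells of a type and less RNA per cell cannot be told apart.

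In all, 3 members met the call in a comparison with sedentary mice. The sequences directly before their RefSeq starts (GRCm38.p6, minus strand, 120 bases each, 5′ to 3′) are shown because these members carry the only calls. The windows are chrX:37191239-37191358 for Ndufa1, chr13:73328483-73328602 for Ndufs6 and chr13:108158626-108158745 for Ndufaf2.
Ndufa1: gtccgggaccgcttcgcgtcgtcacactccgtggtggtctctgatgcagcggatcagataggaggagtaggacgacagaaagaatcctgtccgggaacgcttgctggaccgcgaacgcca
Ndufs6: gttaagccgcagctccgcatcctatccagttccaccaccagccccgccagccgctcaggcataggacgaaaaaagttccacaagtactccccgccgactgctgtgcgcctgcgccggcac
Ndufaf2: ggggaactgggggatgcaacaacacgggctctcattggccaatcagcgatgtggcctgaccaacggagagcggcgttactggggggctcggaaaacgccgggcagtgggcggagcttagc

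Promoters of nuclear respiratory genes are known for sites of NRF1, of the ETS factor GABP and of YY1. RefSeq windows of 250 bases before to 50 bases after the start were at hand for 39 of the 45 members and for 27025 genes in all. The NRF1 core GCGCATGC, on either strand, was found in 5 of 39 member windows (12.8%) and in 3.05% of all. The ETS motif CCGGAAG was found in 5 members (12.8%, against 9.93% of all), and the YY1 motif AAGATGGCG in 5 members (12.8%, against 1.64%). No member held more than 1 of the motifs, so that 15 of 39 members had a match. A match is a description of letters and not a bound site. None of the 120-base stretches above holds a motif, but the Ndufs6 window has the YY1 motif just after the start. Stretches of 30 bases follow with the motif in capitals (in Ndufa11 the motif matches on both strands, overlapping), since Ndufs6 is a called member and the other 3 come from members that varied most between libraries (chr17:56717691-56717720, plus strand, for Ndufa11; chr8:83566727-83566756, plus, for Ndufb7; chr13:73328433-73328462, minus, for Ndufs6; chr10:80249463-80249492, plus, for Ndufs7).
Ndufa11, NRF1: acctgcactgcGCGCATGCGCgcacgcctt
Ndufb7, ETS: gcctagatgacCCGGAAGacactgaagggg
Ndufs6, YY1: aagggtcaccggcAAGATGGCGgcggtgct
Ndufs7, YY1: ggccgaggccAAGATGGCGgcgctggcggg

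Complex I transcripts were abundant in every library. Together the members took 1.36% ± 0.161 (SD, n = 10) of all FPKM in sedentary libraries, and the group means lay between 1.32% in 14-7-0 and 1.37% in 14-0-0. Subunits had a median of mean levels of 130 FPKM and the Ndufaf factors one of 14.3 FPKM. All 7 Ndufaf factors had means between 4.73 and 27.9 FPKM, and among the subunits the accessory subunit Ndufa11 of the membrane arm, with 21.7 FPKM, fell in this range.

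By mean FPKM over 70 libraries the highest members were Ndufa4 (647), the membrane arm accessory subunit Ndufa3 (393) and Ndufb9 (317), also of the membrane arm. The lowest were Ndufa4l2 (2.10), known as a hypoxia-inducible gene, Ndufaf6 (4.73) and Ndufaf4 (9.39). Among the core subunits, Ndufs1, the largest iron-sulfur subunit, had 71.5 FPKM and Ndufs3, near the quinone site, had 134 FPKM. The order of neighbouring members does not exceed their ranges across libraries in most places. Levels of Ndufs3, Ndufb4, Ndufb6, Ndufa13, Ndufa12, Ndufb9 and Ndufs5 are less certain, since between 21.7% and 39.7% of their 50-base transcript windows also occur in transcripts of other genes. For Ndufs3, Ndufb6, Ndufa13 and Ndufb9 the sharers include a gene annotated at the same place, whose reads have a single location and can be assigned to either gene. For Ndufb4, Ndufa12 and Ndufs5 no overlapping gene is annotated, and reads with several locations were removed. Ndufb4 shares 37.0% of its windows, among others with Ndufb4c, and Ndufs6 shares 8.61%, with Ndufs6b.

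**Figure D1:**
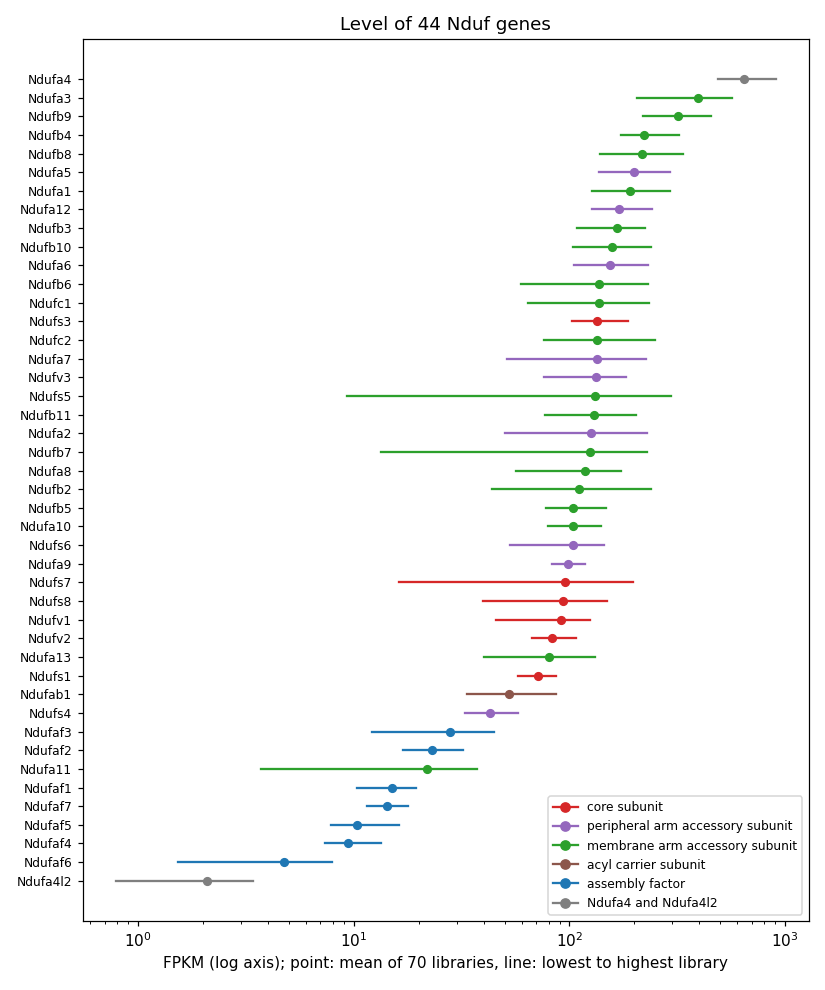
Mean FPKM (points) and the lowest to highest of 70 libraries (lines), on a log axis, for 44 Nduf genes coloured by class. The assembly factors sit at 4.73 to 27.9 FPKM, below every subunit except Ndufa11, and the lines of Ndufs5, Ndufb7 and Ndufs7 are the longest of the subunits.

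The level of complex I transcripts did not separate the groups. A score, the mean over members of the log2 value minus each gene's mean, had group means from -0.030 in home cage to 0.035 in 0-0-2, with a pooled SD within groups of 0.158. The subunit score ranged from -0.031 in 14-7-0 to 0.038 in 0-0-2 (SD within groups 0.175), and the assembly factor score from -0.031 in home cage to 0.041 in 14-0-0 (SD 0.105). The differences between group means were thus smaller than the spread between libraries of 1 group. In sedentary libraries the member score ran from -0.21 to 0.43, with a median of -0.013, and in 14-0-0 from -0.26 to 0.38, with a median of 0.0019. The highest sedentary library was replicate 4, in which 15 of 45 members reached their maximum over all 70 libraries. The lowest library of all was 14-7-2 replicate 9 (-0.38), in which 16 members had their minimum.

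**Figure D2:**
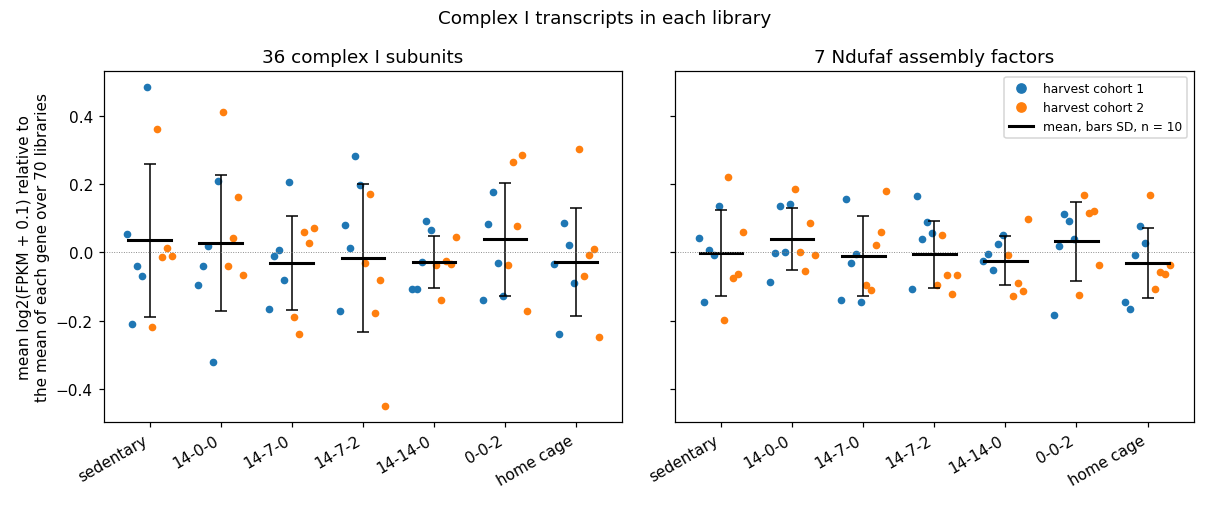
Score of the 36 subunits (left) and the 7 Ndufaf assembly factors (right) in each library, as mean log2(FPKM + 0.1) relative to each gene's mean over 70 libraries, with group mean and SD (n = 10). All groups overlap, with subunit means between -0.031 and 0.038.

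Directly after 14 days of running, 1 member of 45 was called higher than in sedentary mice and none lower, where 9.15% of all genes tested were called (6.11% higher, 3.04% lower). The member was Ndufa1, a small accessory subunit of the membrane arm (chrX:37187588-37191163, minus strand, GRCm38). In sedentary libraries its lowest, median and highest levels were 131, 165 and 233 FPKM, and in 14-0-0 they were 174, 218 and 255 FPKM. The groups overlapped, but all 14-0-0 libraries lay above the sedentary median. The means were 168 ± 32.9 and 218 ± 30.8 FPKM (SD, n = 10 each), a log2 fold change of 0.39 (SE 0.106, 95% interval 0.17 to 0.61, limma p = 0.00147, Benjamini-Hochberg adjusted p = 0.279). The adjustment can give genes of different p the same adjusted p. This value was the smallest of the comparison, but that does not make Ndufa1 the gene of smallest p. Over the alternatives the adjusted p of Ndufa1 ranged from 0.109 to 1. By Cyber-T, the test of the study, the smallest adjusted p of all genes was 0.00998, and that of Ndufa1 was 0.341.

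Within the harvest cohorts the log2 fold change of Ndufa1 was 0.35 (limma p = 0.0272) in cohort 1 and 0.43 (limma p = 0.0229) in cohort 2. The cohorts are parts of the same 20 libraries that gave the call, so they are no independent check of it. Without sedentary replicate 6, Ndufaf6 was also called (0.25, limma p = 0.0200), and without sedentary replicate 4, Ndufs4 was (0.17, limma p = 0.0499). Adding the choroid plexus score to the fit gave for Ndufa1 a log2 fold change of 0.27 (limma p = 0.0478), and the part of those cells was not tested further. None of the transcript windows of Ndufa1 is shared with another gene, and no annotated gene overlaps it. Against sedentary, the other groups had log2 fold changes of Ndufa1 between 0.14 in 14-7-0 and 0.17 in 0-0-2, none of them called. Against 14-7-0, the 14-0-0 group differed by 0.25 (SE 0.131, limma p = 0.0690), which did not pass, and 14-7-2 differed from 14-7-0 by 0.0096 (limma p = 0.949).

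**Figure D3:**
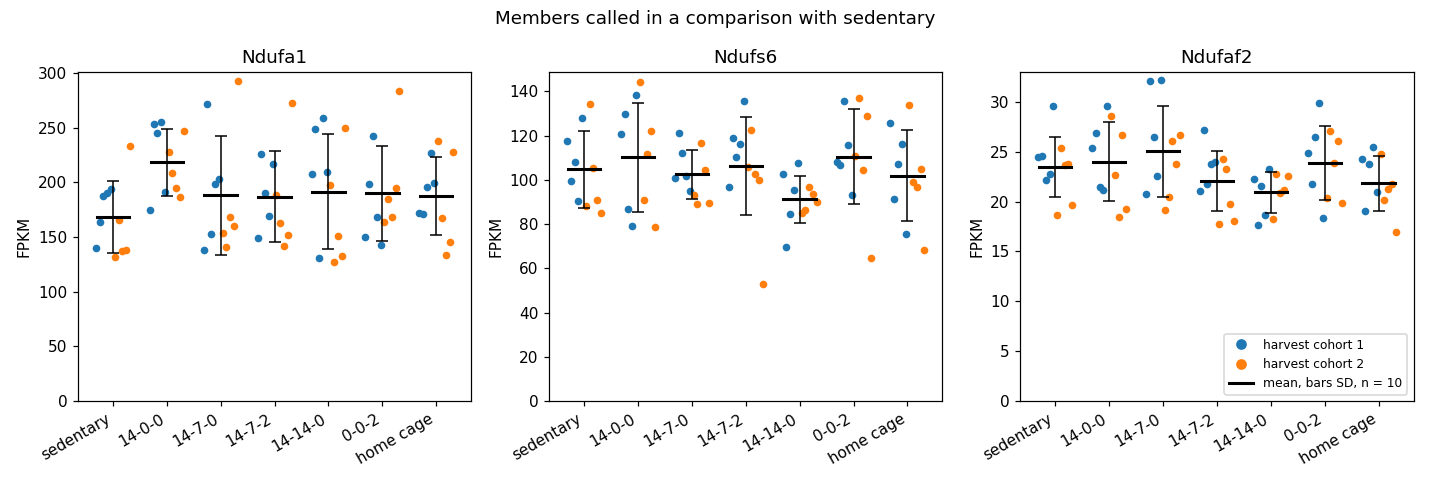
FPKM of Ndufa1, Ndufs6 and Ndufaf2 in each of 70 libraries, coloured by harvest cohort, with group mean and SD (n = 10). Ndufa1 has its highest mean in 14-0-0 (218 FPKM), and Ndufs6 and Ndufaf2 have their lowest in 14-14-0 (91.1 and 20.9 FPKM).

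After 14 days of running and a 14-day delay, 2 of 45 members were called lower and none higher, where 4.95% of all genes were called (3.19% higher, 1.75% lower). Ndufs6 is a zinc-binding accessory subunit of the peripheral arm (chr13:73319838-73328542, minus strand). Its lowest, median and highest levels were 84.9, 102 and 134 FPKM in sedentary and 69.5, 91.8 and 107 FPKM in 14-14-0, so that the groups overlapped between 84.9 and 107 FPKM. The log2 fold change was -0.19 (SE 0.0896, limma p = 0.0437, adjusted p = 0.974). Ndufaf2 is an assembly factor that holds the place of an accessory subunit in a late intermediate (chr13:108002715-108158623, minus strand). It had 18.6, 23.7 and 29.6 FPKM in sedentary and 17.7, 21.4 and 23.3 FPKM in 14-14-0. The groups overlapped, with most sedentary libraries above the 14-14-0 median. Its log2 fold change was -0.16 (SE 0.0738, limma p = 0.0412, adjusted p = 0.974). Mrpl36 overlaps Ndufs6 and Smim15 overlaps Ndufaf2 on the opposite strand, and without a stated use of strand their reads cannot be told apart.

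Neither call held when sedentary replicate 6 was left out (log2 fold changes of -0.15 for Ndufs6, limma p = 0.0867, and -0.15 for Ndufaf2, limma p = 0.0661), nor without sedentary replicate 4 (-0.16, limma p = 0.0864, and -0.12, limma p = 0.0840). In cohort 1 the values were -0.25 (limma p = 0.0904) and -0.25 (limma p = 0.0318), and in cohort 2 they were -0.14 (limma p = 0.277) and -0.067 (limma p = 0.524). Scaling by the median ratio also ended both calls, with log2 fold changes of -0.17 (limma p = 0.0636) and -0.14 (limma p = 0.0655). Adding the choroid plexus score to the fit gave -0.15 (limma p = 0.172) and -0.078 (limma p = 0.352). Without replicate 6 the low-level assembly factor Ndufaf6 was the 1 member called in 14-14-0, and it was called higher (0.26, limma p = 0.0191).

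No member was called in the other 6 comparisons by limma, and none by Cyber-T, the test of the study. Of all genes, against sedentary, 3.26% were called in 14-7-0 (1.6% higher, 1.66% lower), 4.39% in 14-7-2 (2.07% higher, 2.32% lower), 2.37% in 0-0-2 (1.14% higher, 1.23% lower) and 2.3% in home cage (1.22% higher, 1.08% lower). In 14-0-0 against 14-7-0 it was 5.63% (3.6% higher, 2.03% lower), and in 14-7-2 against 14-7-0 it was 5.39% (2.03% higher, 3.36% lower). In these 6 comparisons the members of smallest p were Ndufa12 (14-7-0, log2 fold change -0.19, limma p = 0.1001), Ndufs1 (14-7-2, 0.097, limma p = 0.0950), Ndufaf7 (0-0-2, 0.098, limma p = 0.0940), Ndufa4l2 (home cage, -0.34, limma p = 0.0835), Ndufa1 (14-0-0 against 14-7-0, above) and Ndufs1 (14-7-2 against 14-7-0, 0.10, limma p = 0.0749). Single libraries changed these counts. Without sedentary replicate 6, Ndufaf6 was called higher in 14-7-2 (0.18, limma p = 0.0419) and in home cage (0.24, limma p = 0.0247). Without replicate 9 of both groups, Ndufa1 (0.31, limma p = 0.0191) and Ndufs4 (0.18, limma p = 0.0452) were called higher in 14-0-0 than in 14-7-0. A p that misses the threshold does not show equal levels, and the intervals give what the data allow. Between 37 and 41 of the 45 members had a 95% interval inside a log2 fold change of ±0.5 in each of the 8 comparisons, and at least 43 had one inside ±1.

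Medians over the members were small, between -0.062 and 0.048. In the groups with a delay and in home cage they lay further below 0 than those of all genes. In 14-0-0 against 14-7-0 the member median lay further above 0. Against sedentary the member median was -0.0039 in 14-0-0, where that of all genes was 0.0083, and 22 of 45 members were higher. With a delay it was -0.037 in 14-7-0 (all genes -0.0066, 9 members higher), -0.062 in 14-14-0 (all genes -0.010, 11 higher) and, after reactivation, -0.045 in 14-7-2 (all genes -0.00042, 17 higher). For 0-0-2 it was 0.0028 (all genes 0.0064, 25 higher), and for home cage -0.058 (all genes -0.0067, 11 higher). Of all genes, 52.5% were higher in 14-0-0, 47.5% in 14-7-0, 45.9% in 14-14-0 and 49.9% in 14-7-2. It was 53.2% for 0-0-2 and 46.9% for home cage. The 6 medians share the same 10 sedentary libraries. Against 14-7-0, the median was 0.048 in 14-0-0 (all genes 0.0092) and -0.0017 in 14-7-2 (0.0033). Without sedentary replicate 4, the medians came to -0.015 in home cage, 0.045 for 0-0-2, 0.031 for 14-0-0, -0.013 for 14-7-0, 0.0049 for 14-7-2 and -0.0089 for 14-14-0, so that the sign changed in 14-0-0 and in 14-7-2. Without sedentary replicate 6 the 14-0-0 median was 0.020, with 30 members and 48.9% of all genes higher. Adding the choroid plexus score to the fit turned the 14-0-0 median to 0.042 (36 of 45 members higher, all genes 0.023 with 57.0% higher). It gave 0.020 for 0-0-2 (35 members and 58.2% of all genes higher), -0.0083 for 14-7-2, -0.046 for 14-7-0, -0.073 for 14-14-0 and -0.024 for home cage. The direction of the 14-0-0 median thus depended on the fit and on single libraries.

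The sign of the median also differed between harvest cohorts in 3 of the 6 groups compared with sedentary. It was -0.080 in cohort 1 and 0.049 in cohort 2 for 14-0-0, 0.025 and -0.10 for 14-7-2, and -0.049 and 0.064 for 0-0-2. It was negative in both cohorts for 14-7-0 (-0.050 and -0.051), 14-14-0 (-0.031 and -0.075) and home cage (-0.090 and -0.037). For 14-0-0 against 14-7-0 it was -0.059 in cohort 1 and 0.14 in cohort 2, and for 14-7-2 against 14-7-0 it was 0.079 and -0.068.

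Rescaling changed the medians. With each library scaled by its median ratio, the medians against sedentary were -0.044 in home cage, -0.0015 for 0-0-2, -0.0093 for 14-0-0, -0.032 for 14-7-0, -0.045 for 14-7-2 and -0.044 for 14-14-0. With quantile normalization they were -0.017, 0.024, 0.011, -0.029, -0.036 and -0.016 in the same order. In 14-14-0 and home cage quantile normalization brought the number of higher members from 11 to 21 and from 11 to 19. Of all genes, 47.6% and 53.8% were then higher. The sign turned in 14-0-0 under quantile normalization and in 0-0-2 under the median ratio, both from values near 0, and kept its direction in the other 4 groups.

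**Figure D4:**
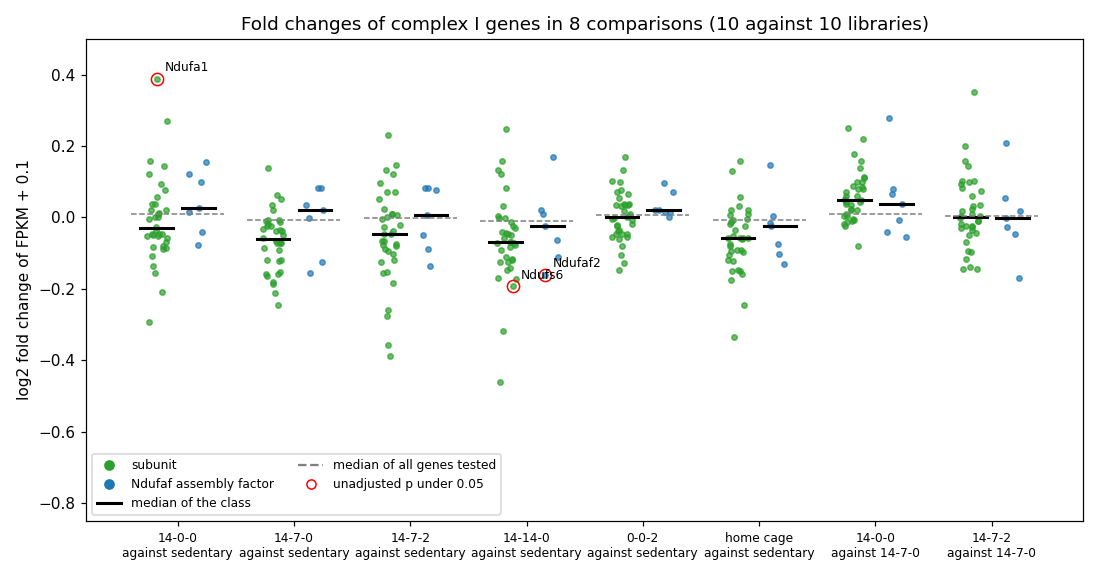
Log2 fold change of the 36 subunits (green) and 7 Ndufaf factors (blue) in 8 comparisons of 10 against 10 libraries, with the median of each class (black), the median of all genes tested (dashed) and the calls (red rings). Class medians lie between -0.068 and 0.049, and the 3 rings are Ndufa1, Ndufs6 and Ndufaf2.

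Subunits were set against assembly factors in each comparison. The subunit median was lower than that of the Ndufaf factors in all 6 comparisons with sedentary, by 0.057 in 14-0-0 (-0.031 against 0.026), by 0.083 in 14-7-0 (-0.061 against 0.022), by 0.053 in 14-7-2 (-0.046 against 0.0069), by 0.045 in 14-14-0 (-0.068 against -0.023), by 0.019 in 0-0-2 (0.00012 against 0.019) and by 0.034 in home cage (-0.058 against -0.024). These values rest on the same sedentary libraries. The sign was not the same in both harvest cohorts for 14-0-0 (-0.17 in cohort 1 and 0.029 in cohort 2, subunits minus Ndufaf factors), 14-7-2 (0.0013 and -0.10), 0-0-2 (-0.051 and 0.013) and home cage (0.013 and -0.041), and was negative in both for 14-7-0 (-0.025 and -0.16) and 14-14-0 (-0.016 and -0.073). With the choroid plexus score in the fit it was -0.0037 for 14-0-0 and 0.036 for home cage. The difference between the subunit and the assembly score of a library had a mean of 0.037 ± 0.131 in sedentary and of -0.013 ± 0.147 in 14-0-0 (SD, n = 10), and in sedentary replicate 4 it was 0.35, the highest of its group. Without that library the subunit median was lower by 0.034 in 14-0-0, 0.043 in 14-7-0, 0.0069 in 14-7-2, 0.012 in 14-14-0 and 0.0074 in 0-0-2, and higher by 0.018 in home cage. Against 14-7-0, the subunit median exceeded that of the Ndufaf factors by 0.011 in 14-0-0 and by 0.0020 in 14-7-2.

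None of the 7 core subunits was called in the 8 comparisons as fitted here, but Ndufs1 was called higher under some alternatives. These were 14-0-0 against sedentary without replicate 9 (0.11, limma p = 0.0460) and, in a joint fit of all groups, 14-0-0 against 14-7-0 (limma p = 0.0462) and 14-7-2 against 14-7-0 (limma p = 0.0385). Ndufs1 varied least of all members between libraries of a group (SD of log2 values 0.105) and had means from 69.4 ± 6.41 FPKM in 14-7-0 to 74.5 ± 5.47 FPKM in 14-7-2 (SD, n = 10). Its log2 fold change against sedentary was 0.093 (SE 0.0530, limma p = 0.0935) in 14-0-0 and 0.097 (SE 0.0554, limma p = 0.0950) in 14-7-2. Ndufs7, which carries the last iron-sulfur cluster before quinone, varied most of the core subunits (SD 0.701). It had the lowest log2 fold change of the core subunits in every comparison with sedentary, from -0.36 (SE 0.335) in 14-7-2 to -0.13 (SE 0.293) in 0-0-2. Its mean was 112 ± 52.2 FPKM in sedentary, with 47.9, 102 and 196 FPKM as lowest, median and highest, and 89.9 ± 38.2 FPKM in 14-7-2, with 16.2, 82.4 and 144 FPKM.

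Further core subunits are Ndufs3, Ndufs8 with 2 iron-sulfur clusters, Ndufv1, which binds NADH and the flavin, and its partner Ndufv2. Their log2 fold changes against sedentary lay between -0.17 (Ndufs8, SE 0.123, in 14-14-0) and 0.073 (Ndufs3, SE 0.0860, in 14-7-2). In 14-7-0 all 7 core subunits had negative values, with a median of -0.037, and in 0-0-2 5 of 7 had positive ones, with a median of 0.0028.

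The assembly factors act at separate stages. Ndufaf1 belongs to the complex that builds the membrane arm, Ndufaf3 and Ndufaf4 act together on an early peripheral module, Ndufaf5 and Ndufaf7 modify core subunits, and Ndufaf6 is needed early. Their log2 fold changes in 14-0-0 were 0.015 for Ndufaf1, 0.026 for Ndufaf2, -0.076 for Ndufaf3, 0.12 for Ndufaf4, -0.041 for Ndufaf5, 0.16 for Ndufaf6 and 0.098 for Ndufaf7. The smallest p among them was that of Ndufaf4 (SE 0.0778, limma p = 0.134). In 0-0-2 all 7 log2 fold changes were above 0, between 0.0012 for Ndufaf6 and 0.098 for Ndufaf7 (SE 0.0557, limma p = 0.0940), where 53.2% of all genes were higher. The value of Ndufaf6 is close to no change, and its mean FPKM was slightly lower than in sedentary (4.53 against 4.56). Ndufaf6 had 1.53 FPKM in 14-7-0 replicate 4, the library with the most genes at 0, where the median of that group was 4.59 FPKM.

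Ndufa4 and Ndufa4l2 were at opposite ends of the range. Ndufa4 had group means from 629 ± 118 FPKM in 14-7-0 to 671 ± 80.0 in 14-0-0, and its log2 fold changes against sedentary lay between -0.014 and 0.092. Ndufa4l2 had means from 1.81 ± 0.597 FPKM in home cage to 2.28 ± 0.614 in sedentary (SD, n = 10). It was below sedentary in all 6 groups, with log2 fold changes from -0.34 (SE 0.188) in home cage to -0.034 (SE 0.171) in 14-7-0. On this scale the pseudocount lessens the change of so low a gene.

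Members differed more in how widely they varied than in how they responded. The SD of log2 values within groups was 0.991 for Ndufs5, 0.701 for Ndufs7, 0.581 for Ndufb2, 0.576 for Ndufb7 and 0.442 for Ndufa11, against a median of 0.252 over all members. The accessory subunits of this list, and the split by GC content below, were singled out after their values were seen. Ndufs5 ran from 9.27 to 225 FPKM within 14-7-2 (median 160) and from 13.4 to 296 FPKM within 14-7-0 (median 144). In 14-7-2 the lowest library for Ndufs5, Ndufs7, Ndufb7 and Ndufa11 was in each case replicate 9, with 9.27, 16.2, 13.4 and 3.71 FPKM.

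This library was low in most members whose transcripts are rich in GC, though not only in these. The largest deviation, -4.09 on the log2 scale, was that of Ndufs5, with a GC content of 53.4%. Of the GC-rich members, Ndufb10 (0.18) and Ndufb9 (0.0080) were not low. The relation over all genes was not looked at. Of the 13 members with a median GC content of at least 55% over their coding transcripts, 11 were below the 14-7-2 median in replicate 9, with a median deviation of -1.04 on the log2 scale. Of the 32 other members, 12 were below, with a median deviation of 0.17. Over the 45 members the deviation had a Pearson correlation of -0.59 with GC content (Spearman -0.62), which is given as a description across genes that share 1 library. Without this library the member median of 14-7-2 against sedentary was -0.00052 in place of -0.045, and against 14-7-0 it was 0.052 in place of -0.0017.

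The relation to GC content ran with the replicate number. Fitted over the 45 members, the log2 change per 10 points of GC was lowest in replicate 9 in 7 of 7 groups, from -1.31 in 14-7-2 and -0.74 in 0-0-2 to -0.33 in sedentary. The highest slope was that of sedentary replicate 4 (0.43). The mean slope was 0.11 ± 0.247 in sedentary, and between -0.078 ± 0.446 in 14-7-2 and 0.012 ± 0.286 in 0-0-2 (SD, n = 10) in the other groups. Read as fold changes against sedentary, the same values had lower medians in GC-rich members. Their median was -0.13 in home cage, -0.038 for 0-0-2, -0.068 for 14-0-0, -0.072 for 14-7-0, -0.14 for 14-7-2 and -0.13 for 14-14-0, and that of the other 32 members was -0.021, 0.026, 0.018, -0.023, 0.0066 and -0.027 in the same order. The part of GC content in the member medians was not tested. Leaving out replicate 9 of both groups gave the same 0 calls in 14-7-0, 14-7-2, 0-0-2 and home cage and the calls of Ndufs6 and Ndufaf2 in 14-14-0, and in 14-0-0 it called Ndufa1 (0.42, limma p = 0.000485) with Ndufs1 and the accessory subunit Ndufs4.

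**Figure D5:**
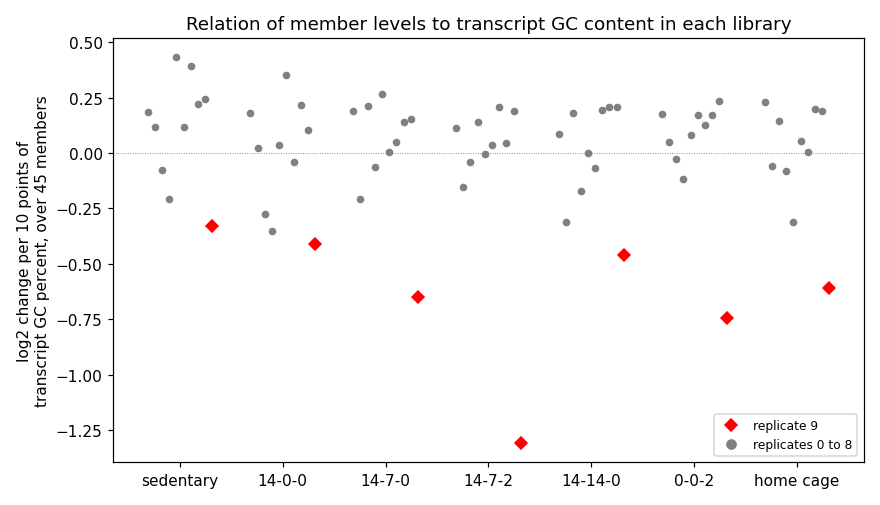
Slope of the log2 level, relative to each gene's mean, on transcript GC content over the 45 members, in each library by group. Replicate 9 (red) is lowest in all 7 groups, down to -1.31 in 14-7-2, and sedentary replicate 4 has the highest slope, 0.43.

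Short lists of other mitochondrial genes were set beside the members. They were 8 further complex I assembly factors tested, 8 genes of complex II, 10 nuclear subunits of complex IV and 10 regulators of mitochondrial biogenesis. In the 6 comparisons with sedentary, limma called 0 of these genes at an unadjusted p under 0.05. Of all genes, 9.15% were called in 14-0-0, 4.95% in 14-14-0 and 2.3% to 4.39% in the other groups. In 14-0-0 the medians of these lists were 0.043, 0.039, -0.0018 and -0.0067. Without sedentary replicate 6, 1 complex II gene was called higher in 14-0-0 and 1 further assembly factor in 14-7-2. Of all 12994 genes, 906 were then called higher and 436 lower in 14-0-0, and 227 and 238 in 14-7-2. In 14-0-0 against 14-7-0, Acad9, a complex I assembly factor (0.080, limma p = 0.0375), and Cox7b of complex IV (0.22, limma p = 0.0186) were called higher. Of all genes, 5.63% were called there, 3.6% of them higher and 2.03% lower. In 14-7-2 against 14-7-0 none of these lists had a call, where 5.39% of all genes had one.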

How the data were processed

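Poly(A) RNA of 70 dorsal hippocampus libraries, each from a separate mouse, was sequenced in 50-base single reads. Per the labels and the study's methods, the authors aligned reads with ELAND and Bowtie to mm10, kept unique alignments and deposited FPKM per gene from Cuffnorm (Tuxedo suite). Versions of Bowtie and Cuffnorm and the use of strand in counting were not given in the sources used here. Counts were not at hand. The study lists total reads and alignment rates for its sequencing samples, and the totals differ widely. Their names are not keyed to the groups and replicates used here, so the depth of a given library could not be told. FPKM sums ran from 382574 to 469206. Uneven coverage by GC content is not corrected by FPKM.

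Values were taken as log2(FPKM + 0.1), which understates changes of low genes, for the 12994 of 24346 genes whose mean reached 1 FPKM. Each of 8 comparisons was fitted with limma 3.58.1 (R 4.3.3, moderated test with trend, two-sided) on its 20 libraries, with Benjamini-Hochberg adjustment over all genes, and a gene was called at an unadjusted p under 0.05, the threshold used by the study. In these limma fits no gene passed an adjusted p of 0.05 in any comparison. The fit was tested on simulated data. P-values measure the spread between these mice. The rule named, per comparison, up to 5 called members of smallest p, core subunits and Ndufaf factors, Ndufa4 and Ndufa4l2, the 3 highest and 3 lowest members by mean FPKM, members with a copy, and up to 3 genes of smallest p per other list. The values of 1 member are not reported here, although it stays in counts and medians over the members. Other members and the GC split were named after their values were seen. Members and lists were chosen with earlier results of these data known. GC content came from GENCODE transcripts (GRCm38) and promoters from RefSeq (GRCm38.p6). Alternatives covered the pseudocount, filter, scaling, joint fit, cohort, replicate block, choroid plexus score, Cyber-T and left-out libraries.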

Additional observations from a re-analysis of the deposited data

Results flagged for a closer look

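Of 154 groups of 10 libraries tested over 22 scores and members, 16 had a library far from the nearest other by Dixon's test, where chance flags about 1 in 20. In 14-7-2 replicate 9 the lowest values of the group were 16.2 FPKM for Ndufs7, 39.5 for Ndufs8, 45.4 for Ndufv1, 12.2 for Ndufaf3, 205 for Ndufa3 and 52.9 for Ndufs6. In 0-0-2 replicate 9 they were 26.2 FPKM for Ndufs7, 56.3 for Ndufs8, 63.2 for Ndufv1, 0.789 for Ndufa4l2 and 64.7 for Ndufs6. These libraries are the ones with the lowest slope on GC content in their groups, and they also had the highest choroid plexus marker sums of their groups (3464 and 13064 FPKM). The part of either in these values was not tested. Elsewhere, Ndufs1 was low in home cage replicate 8 (60.1 FPKM), Ndufv1 in 14-14-0 replicate 1 (68.3 FPKM) and Ndufaf6 in 14-7-0 replicate 4 (1.53 FPKM). Ndufaf4 was high in home cage replicate 3 (11.5 FPKM) and in 14-7-0 replicate 1 (13.4 FPKM).

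Of 352 differences between harvest cohorts tested with an interaction term in limma, 1 had an unadjusted p under 0.05, in 14-7-2 against 14-7-0. For Ndufa12, an accessory subunit of the peripheral arm, the log2 fold change was lower by 0.41 in cohort 2 (a difference of -0.41, limma p = 0.0137, Benjamini-Hochberg adjusted p = 0.963). In that comparison 3.7% of all genes tested met the same threshold, and the difference did not pass the adjustment.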

How the results depend on the processing

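Of 129 alternative counts of called members, 103 stayed within 1.5 times the value reported. In most comparisons that value was 0, which counts as unmoved when it stays 0, and there the stricter p could give only 0. The tally thus says little of the comparisons that had calls. All 113 alternative member medians moved by less than 1 SD of the member score between libraries, taken over the 2 groups compared. That SD was larger than any of the medians, so that changes of sign count as unmoved and this says nothing of their stability. The Ndufa1 call in 14-0-0 held in 15 of 15 alternatives, with log2 fold changes of 0.27 to 0.43. All of them rest on the libraries that gave the call or on parts of these, so they are no independent check. The highest p was that with the choroid plexus covariate (limma p = 0.0478), and no adjusted p was under 0.109. In 14-14-0 the count of 2 fell to 0 under median ratio scaling, quantile normalization, the joint fit of 7 groups, the choroid plexus covariate, Cyber-T, cohort 2 alone and a call at p under 0.01. Of all 12994 genes, 512 were called higher and 123 lower under median ratio scaling. In the same order up to cohort 2 alone, the values were 401 and 279, 523 and 211, 44 and 102, 405 and 145, and 118 and 147. Leaving out libraries gave 2 to 3 calls in 14-0-0, 0 to 1 in 14-7-2, 0 to 2 in 14-14-0, 0 to 1 in home cage and 0 to 2 in 14-0-0 against 14-7-0. The libraries concerned were sedentary replicate 6 and replicate 4 and replicate 9 of both groups, the last 2 settings being chosen after seeing the data. Of all genes, 906 were called higher and 436 lower in 14-0-0 without sedentary replicate 6. Without sedentary replicate 4 they were 708 and 370, and without replicate 9 they were 747 and 358. In 14-14-0 they were 589 and 317, 378 and 237, and 457 and 282 in the same order. Without sedentary replicate 6 they were 227 and 238 in 14-7-2 and 239 and 170 in home cage. Without replicate 9 they were 479 and 271 in 14-0-0 against 14-7-0. In 14-0-0 the count of members was 2 with the choroid plexus covariate (all genes 482 higher and 220 lower) and 3 in cohort 1 alone (748 and 284). In 14-0-0 against 14-7-0 it was 2 in the joint fit (585 and 205) and 1 in cohort 2 alone (350 and 273). In 14-7-2 against 14-7-0 it was 1 in the joint fit (328 and 369) and 1 in cohort 1 alone (263 and 279). The subunit median minus that of the Ndufaf factors was -0.16 in cohort 1 alone for 14-0-0 against 14-7-0. The uncalled Ndufa1 value changed sign to -0.021 in 14-14-0 with the choroid plexus covariate, and in 14-7-2 against 14-7-0 to -0.0034 under quantile normalization, -0.050 with that covariate, -0.0086 by Cyber-T and -0.054 without 14-7-2 replicate 9 (0.028 without 14-7-0 replicate 4). The cause was not tested.

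Replicate numbers were shared between groups, but in no comparison did every pair of same-numbered libraries correlate over 0.1 (2 to 7 of 10 pairs did, and 0 to 4 libraries correlated best with their own number), so they were not taken as pairs. The slope on GC content nevertheless ran with the number, lowest in replicate 9 in 7 of 7 groups, and the labels do not say what a number marks. With the replicate block, the count of called members was 2 for 14-0-0 and for 14-14-0, 1 for 14-7-0 and for 14-7-2, 0 for 0-0-2 and home cage, 3 for 14-0-0 against 14-7-0 and 3 for 14-7-2 against 14-7-0. Calls among all 12994 genes also rose in every comparison. They were 1028 higher and 854 lower in 14-0-0, and in the same form 452 and 463 in 14-14-0. They were 267 and 392 in 14-7-0, 358 and 405 in 14-7-2, 187 and 174 in 0-0-2, and 216 and 346 in home cage. For 14-0-0 against 14-7-0 they were 592 and 307, and for 14-7-2 against 14-7-0 they were 292 and 539. With the block, Ndufa1 in 14-0-0 against 14-7-0 had a limma p of 0.0193. Ndufs1 was called in 14-7-2 against sedentary (limma p = 0.0359) and against 14-7-0 (limma p = 0.0229). Without counts, how far depth limits the low members Ndufaf6 and Ndufa4l2 is unknown.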
